A study of Mus musculus with 8 samples.

Results

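The genes described here are the DNA and histone modifying enzymes of mouse skin stem cells. They were chosen by name: the DNA methyltransferases, the TET dioxygenases, the core of Polycomb repressive complex 2 (Ezh1, Ezh2, Eed and Suz12), the numbered Kmt and Setd methyltransferases, the Kdm demethylases, the Hdac deacetylases and the sirtuins, protein-coding genes only. The choice gave 62 genes of 24755 in either table. All 62 were among the 23861 genes of the hair follicle stem cell table, and 60 were among the 16231 genes of the epidermal stem cell table, in which Kdm4d and Hdac9 were not listed. A further 5 symbols of these families named non-coding genes or pseudogenes and were left out.

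Bulk RNA-seq was performed on sorted dorsal skin cells of mice in telogen, the resting phase of the hair cycle, to ask which transcripts depend on the homeobox factor Msx2. Hair follicle stem cells (HFSC; CD34+CD49f+Sca-1-) gave 2 WT and 2 Msx2-KO libraries, and epidermal stem cells of the skin between the follicles (EpdSC; CD34-CD49f+Sca-1+) gave another 2 of each. The Msx2-KO mice were homozygous for a constitutive knockout allele with a pMC1-neo cassette inserted before exon 2 of Msx2, and the methods name C57BL/6J mice at the same hair cycle stage as WT. The labels put the WT mice behind the HFSC libraries at 2 months of age and the remaining mice at 6 months, so age and genotype cannot be told apart in HFSC. The sex of the mice is not given in the sources used here, and the labels do not say whether the libraries of a group came from separate animals. The p-values measure only the spread between these libraries, which may be technical.

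DNA methyltransferases add methyl groups to cytosine, Dnmt1 on newly copied strands and Dnmt3a and Dnmt3b on unmethylated sites, and TET enzymes oxidize them. Histone methyltransferases write marks that go with transcribed genes, such as H3K4 methylation by the Kmt2 and Setd1 enzymes, or with silenced ones, such as H3K27 methylation by Ezh1 and Ezh2, and the Kdm enzymes remove them. Acetyl groups on histones are removed by zinc-dependent deacetylases (Hdac) and by NAD-dependent sirtuins, and in skin these enzymes are best known for keeping stem cell and differentiation genes apart.

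Msx2 itself was not lower in the libraries labelled Msx2-KO. Its estimated counts in HFSC were 53 and 7 in WT against 40 and 18, and its EpdSC signal was 58.5 and 85.4 in WT against 150.3 and 22.2. The groups overlapped in both cell types, and since counts per gene do not separate the exons, this neither checks nor contradicts the allele. Library totals ranged from 3132974 to 11016659 estimated counts in HFSC and from 14216483 to 24694442 signal units in EpdSC. Mitochondrial ribosomal RNA took 8.94% and 36.3% of WT and 49.4% and 53.2% of labelled Msx2-KO totals in HFSC, where genes with at least 1 count numbered 22447 and 19595 against 11409 and 14251. In EpdSC it took 23.5% and 16.4% of WT and 0.0730% and 6.18% of labelled Msx2-KO totals. Log2 levels of all genes tested correlated at 0.949 and 0.952 between the WT libraries of HFSC and of EpdSC, and at 0.661 and 0.844 between the libraries labelled Msx2-KO. Between genotypes they correlated at 0.675 to 0.709 in HFSC and 0.613 to 0.742 in EpdSC, so that the labelled Msx2-KO libraries of HFSC were less alike than either was to a WT library.

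The sorted populations also differed in marker RNAs. In HFSC the summed normalized counts of 10 HFSC markers, such as Cd34 and Krt15, were 6607 and 6433 in WT against 3540 and 3813 in libraries labelled Msx2-KO, while 8 suprabasal markers summed to 192 and 217 against 812 and 3153, 7 sebaceous gland markers to 77.3 and 93.4 against 1323 and 1063, and 14 markers of cycling cells to 89.8 and 92.3 against 716 and 522. In EpdSC the 8 suprabasal markers summed to 299839 and 216564 against 107407 and 82075 signal units, and the 8 basal markers to 237875 and 279935 against 1038560 and 565858. The 8 HFSC markers listed for EpdSC summed to 90836 and 109480 there against 302137 and 213470, a sum made up mostly of Krt15 and Itga6, which basal cells also express. Only 3 of these 8 lay above WT without overlap, and 4 had negative log2 fold changes. The 7 immune markers listed for EpdSC summed to 609 and 54.1 in WT against 0 and 4.72, and the 5 melanocyte markers listed for HFSC to 193 and 217.5 against 91.3 and 52.6 CPM. The part of these shifts in the values given here was not tested, and in bulk samples fewer cells of a type and less RNA per cell cannot be told apart.

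Promoters of 6 members are shown because these genes carry the main differences: Kmt2d, Kmt2c, Kdm4a and Tet2 are the members that fell in EpdSC, Setd1a had the highest difference there, and Kmt5a lay higher in both cell types. Each run holds the 250 bases before the RefSeq start site in GRCm38.p6, 5′ to 3′ on the strand of the gene, with matches on either strand to 7 short motifs, spelled out after the windows, in capitals.
Kmt2d (chr15:98871206-98871455, minus strand): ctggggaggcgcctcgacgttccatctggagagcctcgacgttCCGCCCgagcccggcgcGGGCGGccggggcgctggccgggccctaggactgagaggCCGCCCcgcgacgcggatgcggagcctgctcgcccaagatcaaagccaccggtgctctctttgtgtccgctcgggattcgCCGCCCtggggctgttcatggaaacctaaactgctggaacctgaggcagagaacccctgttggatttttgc
Kmt2c (chr5:25498784-25499033, minus strand): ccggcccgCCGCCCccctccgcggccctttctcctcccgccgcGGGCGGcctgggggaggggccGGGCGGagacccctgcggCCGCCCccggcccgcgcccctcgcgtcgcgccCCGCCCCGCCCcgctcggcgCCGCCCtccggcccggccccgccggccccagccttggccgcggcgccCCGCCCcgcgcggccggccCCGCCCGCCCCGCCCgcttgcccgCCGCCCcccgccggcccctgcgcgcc
Kdm4a (chr4:118180044-118180293, minus strand): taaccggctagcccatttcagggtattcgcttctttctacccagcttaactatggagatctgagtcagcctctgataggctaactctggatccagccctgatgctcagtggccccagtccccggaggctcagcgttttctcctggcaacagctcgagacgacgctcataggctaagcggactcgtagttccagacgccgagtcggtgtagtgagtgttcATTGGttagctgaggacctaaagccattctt
Tet2 (chr3:133544391-133544640, minus strand): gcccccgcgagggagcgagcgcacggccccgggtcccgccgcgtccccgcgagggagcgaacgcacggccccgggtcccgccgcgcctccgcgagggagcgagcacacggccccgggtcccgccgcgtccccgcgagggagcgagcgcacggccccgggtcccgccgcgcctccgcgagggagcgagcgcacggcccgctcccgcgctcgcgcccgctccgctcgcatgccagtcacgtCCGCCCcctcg
Setd1a (chr7:127777139-127777388, plus strand): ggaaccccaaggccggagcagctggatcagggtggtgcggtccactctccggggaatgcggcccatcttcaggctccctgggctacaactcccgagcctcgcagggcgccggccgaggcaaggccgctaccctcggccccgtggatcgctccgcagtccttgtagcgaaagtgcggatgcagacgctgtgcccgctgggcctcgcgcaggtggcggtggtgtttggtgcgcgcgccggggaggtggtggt
Kmt5a (chr5:124439680-124439929, plus strand): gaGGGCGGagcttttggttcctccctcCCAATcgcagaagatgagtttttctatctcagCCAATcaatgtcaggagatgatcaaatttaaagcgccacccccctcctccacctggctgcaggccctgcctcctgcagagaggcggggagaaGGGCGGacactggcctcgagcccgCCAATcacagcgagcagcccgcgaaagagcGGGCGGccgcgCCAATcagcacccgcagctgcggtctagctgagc

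The 6 windows are CpG-rich but share no motif. GC boxes stand in the windows of Kmt2d, Kmt2c, Tet2 and Kmt5a, some of those of Kmt2c overlapping each other, CCAAT boxes in those of Kdm4a and Kmt5a, and none of the letters searched in that of Setd1a. The share of G and C was lowest in the window of Kdm4a, 53.6%, and highest in that of Kmt2c, 91.6%. The RefSeq start of Setd1a lies 719 bases, and that of Tet2 749 bases, inside the gene bounds of the files. A window was found for 51 of the 62 members, and their median ratio of observed to expected CpG was 0.814 beside 0.378 over 32536 promoter windows of the same length. GC boxes, the letters GGGCGG read on both strands, stood in 30 of the 51 windows (58.8%) beside 33% of all windows. CCAAT boxes stood in 21 (41.2%) beside 33.8%, and the ETS core CCGGAA in 11 (21.6%) beside 12.1%. The homeobox core TAATTG, bound by Msx proteins, stood in 1, that of Hdac4, or 1.96% beside 7.18% of all windows. The RefSeq start used for Hdac4 lies 15358 bases from the annotated start of the gene. Those used for Tet3, Tet1, Setd5 and Sirt1 lie 17406 to 42669 bases away, so these windows may belong to other start sites. TATA boxes, spelled TATAAA, stood in 3 (5.88% beside 12.3%), and E boxes of the form CACGTG in 2 (3.92% beside 6.04%). The E2F motif TTTCCCGC stood in 3, those of Kmt5c, Sirt4 and Suz12 (5.88% beside 0.901%). None of these motifs holds another. A match of letters is a description and not a bound site.

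In EpdSC, 4 of the 60 members fell and none rose, with Kmt2d the farthest. Kmt2d and Kmt2c are the H3K4 monomethyltransferases of enhancers, Kdm4a removes methyl groups from H3K9 and H3K36, and Tet2 oxidizes 5-methylcytosine. The threshold was a Benjamini-Hochberg adjusted p under 0.05 in limma on log2(signal + 1) and a fold change over 2, and it called 7.78% of the 16231 genes lower and 1.57% higher, or 3.75% of the protein-coding genes lower. The 4 members are 6.67% of the 60, between those background shares. Leaving out either WT library removed the calls of the whole table, these 4 among them. The log2 fold change without WT replicate 1 or replicate 2 was -6.70 or -6.64 for Kmt2d and -3.24 or -3.17 for Kmt2c. It was -3.09 or -3.21 for Kdm4a and -3.08 or -3.11 for Tet2. Without replicate 1 or replicate 2 of the labelled Msx2-KO libraries the members' median log2 fold change was -1.09 or -1.18. Over all genes it was -0.40 or -0.84 in the same fits.

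The signal of Kmt2d in EpdSC was 10825 and 11262 in WT against 108 and 106 in libraries labelled Msx2-KO. The libraries of each genotype lay close together and the groups were 103-fold apart in their means, 11043 ± 309 against 107 ± 1.21 (SD, n = 2). The log2 fold change was -6.67 (SE 0.46, adjusted p = 0.0266, limma). Per kilobase of exon Kmt2d was the most abundant of the 60 members in WT EpdSC, at 554 signal units, and ranked 55 in the libraries labelled Msx2-KO, at 5.39. In HFSC, where levels are normalized counts per 1000000 (CPM), the same gene was at 471 and 479 against 447 and 373 CPM, lower without overlap and 1.16-fold lower, with an adjusted p of 0.799 (edgeR). The gene lies on chromosome 15 from 98831669 to 98871204 (GRCm38, minus strand), and its exons overlap no other gene of the annotation.

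Kmt2c, which shares its complex type with Kmt2d, had a signal of 5030 and 5280 in WT against 521 and 595 in libraries labelled Msx2-KO, 9.24-fold lower (log2 fold change -3.21, SE 0.46, adjusted p = 0.0394, limma). Kdm4a was at 1613 and 1478 in WT against 195 and 154 in libraries labelled Msx2-KO, 8.87-fold lower (log2 fold change -3.15, adjusted p = 0.0422, limma), and Tet2 at 1418 and 1396 in WT against 181 and 148 in libraries labelled Msx2-KO, 8.55-fold lower (log2 fold change -3.10, adjusted p = 0.0425, limma). In each the gap between the groups was many times the spread within them. With a pseudocount of 0.1 in place of 1 the adjusted p of Kmt2c was 0.0512, that of Kdm4a 0.0562 and that of Tet2 0.0561, so that Kmt2d alone passed, and with library totals Kmt2c did not pass (0.0545).

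The highest difference was that of Setd1a, the catalytic subunit of a complex that trimethylates H3K4 at promoters. Its EpdSC signal was 1054 and 1120 in WT against 10517 and 6367 in libraries labelled Msx2-KO, 7.77-fold higher, with no overlap between the groups. It did not pass the threshold (log2 fold change 2.91, SE 0.53, adjusted p = 0.0557, limma), though it did with a pseudocount of 10 (0.0408) and with a spread trended on level (0.0365). Per kilobase it ranked 22 in WT and 1 in the libraries labelled Msx2-KO. Setd1a shares 3523 exonic bases on the same strand with the gene model Gm49388, whose signal was 628 and 813 in WT and effectively 0 in both libraries labelled Msx2-KO. Summed over both models, the signal was 1682 and 1933 against 10517 and 6367, with a log2 fold change of 2.18 (adjusted p = 0.0847, limma). In HFSC Setd1a was at 46.9 and 42.6 against 41.5 and 50.3 CPM, and the groups overlapped (log2 fold change 0.03).

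**Figure D1:**
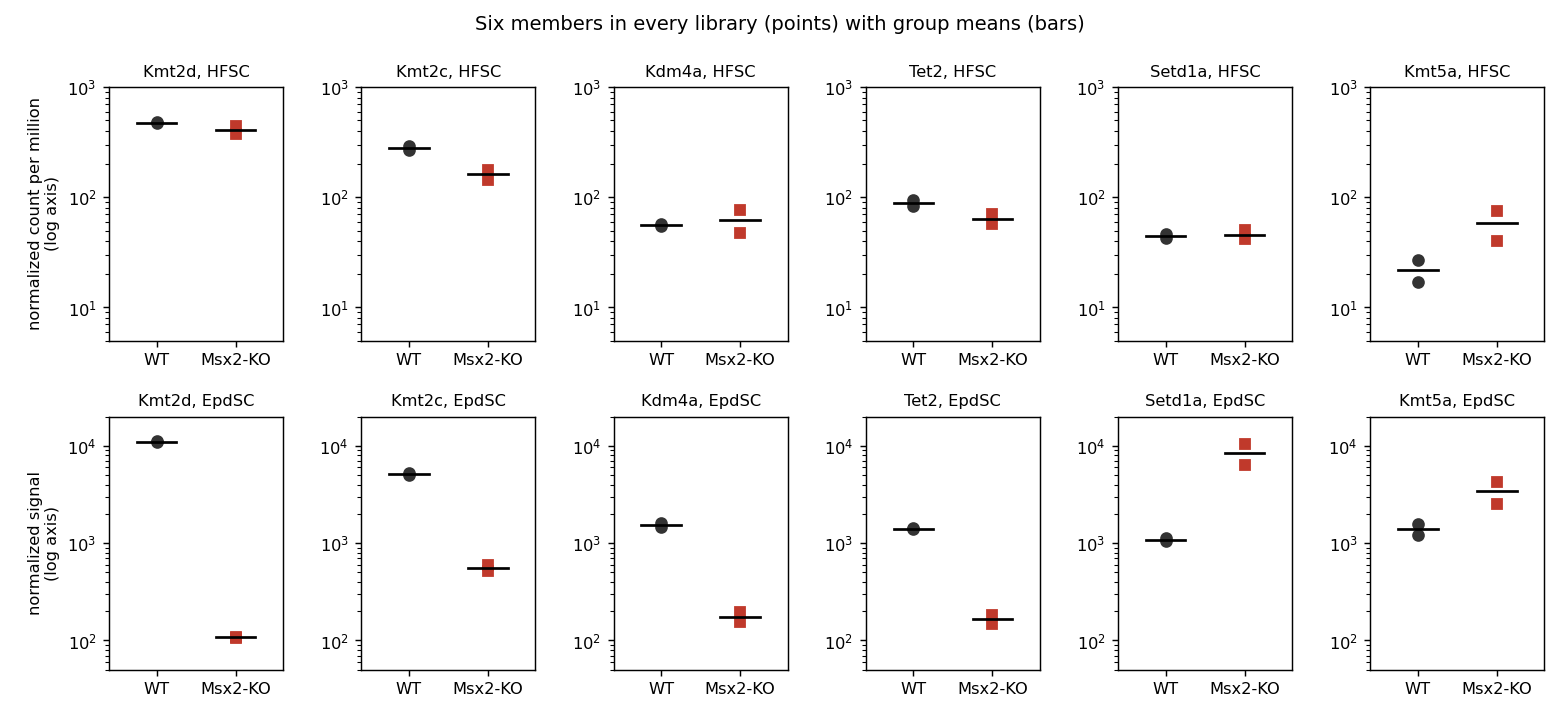
Level of Kmt2d, Kmt2c, Kdm4a, Tet2, Setd1a and Kmt5a in each library on log axes, as CPM in HFSC (top) and normalized signal in EpdSC (bottom); circles are WT libraries, squares libraries labelled Msx2-KO, and bars group means. The EpdSC signal of Kmt2d drops from near 11043 to near 107, while its HFSC level stays between 373 and 479.

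Most members had lower EpdSC levels in the libraries labelled Msx2-KO, and so did many other genes of the table. Of the 60 members, 34 had both libraries labelled Msx2-KO below both WT libraries and 9 had both above, beside 44.5% and 27.8% of all genes tested, or 40.3% and 31.2% of protein-coding genes. These 34 are 56.7% and the 9 are 15.0% of the members. The median log2 fold change was -1.24, with 44 of 60 values negative, beside -0.64 over all genes and -0.32 over protein-coding genes. An unadjusted p under 0.05 was reached by 15 members lower and 1 higher, beside 23.1% and 12.2% of all genes.

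Many members are long, and the longest protein-coding genes of EpdSC had lower medians than others. The median log2 fold change was -0.26 over the 3042 genes with 204 to 2860 exonic bases, -0.0073 over the 3043 with 2861 to 4505, -0.40 over the 1825 with 6906 to 10031 and -0.75 over the 1218 with 10033 or more, which held 21 members with a median of -1.43. Among the 20 members with 4507 to 6905 bases the median was -1.38, beside -0.29 for all genes of that length. Across the 60 members log2 length and log2 fold change had a Pearson r of -0.15, a description over genes of the same libraries. In HFSC the median also went down with length, from 0.24 over the 2904 genes with 204 to 3057 bases to -0.29 over the 1163 longest. Those 1163 held 20 members with a median of -0.33. The 22 HFSC members with 4764 to 7249 bases had -0.43, beside -0.18 for all genes of that length. Across the 60 HFSC members the Pearson r was 0.23. The part of length in the lower values of either cell type was not tested.

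**Figure D2:**
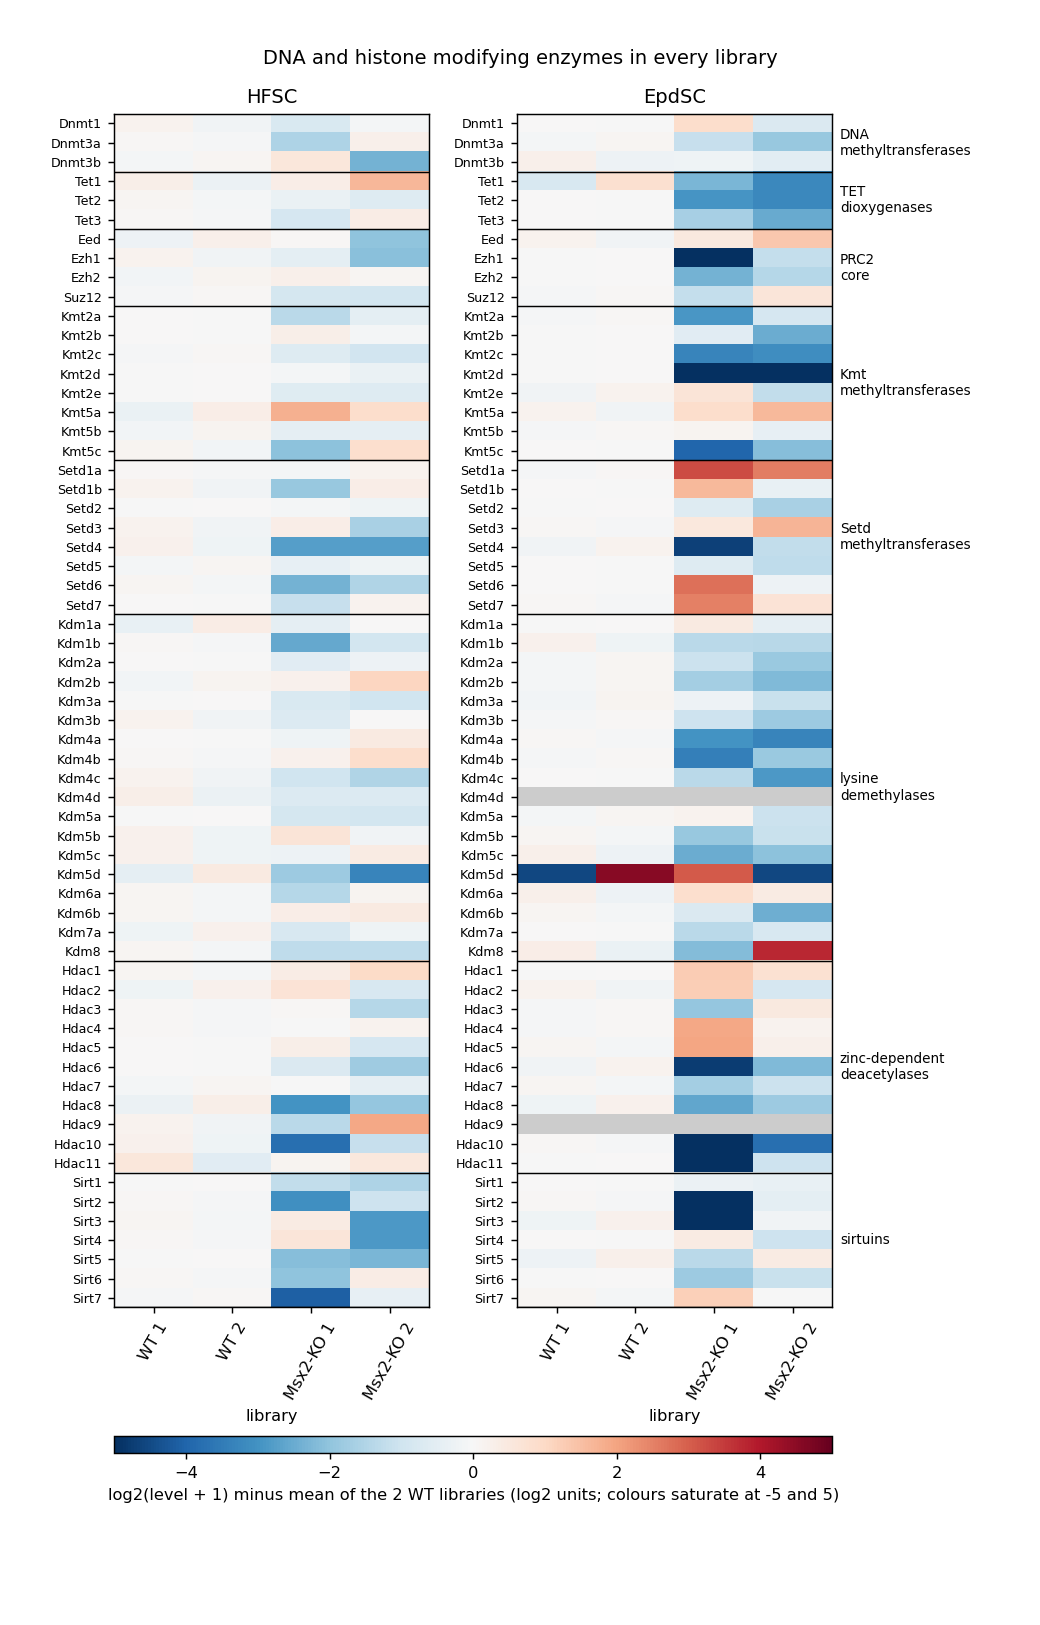
Log2(level + 1) of all 62 members in each library minus the mean of the 2 WT libraries of the same cell type, with families separated by lines and grey where a gene was not listed; blue is below and red above WT. Most EpdSC rows are blue in both libraries labelled Msx2-KO, with Kmt2d dark in both, whereas HFSC rows are paler and differ more between the libraries labelled Msx2-KO.

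All 3 TET genes lay lower in labelled Msx2-KO EpdSC, without overlap, beside 44.5% of all genes. Tet3 had a signal of 5274 and 5113 in WT against 1644 and 909.9 in libraries labelled Msx2-KO, 4.07-fold lower (log2 fold change -2.09, adjusted p = 0.09502, limma). Tet1, the least abundant member per kilobase, was at 36.8 and 115 in WT against 12.7 and 6.07 in libraries labelled Msx2-KO (log2 fold change -2.75, adjusted p = 0.112, limma). Tet2 alone passed the threshold. In HFSC the family did not move together: Tet2 was at 95.2 and 83.7 against 70.5 and 57.3 CPM, Tet3 overlapped at 197 and 183 against 105 and 246, and Tet1 lay above WT at 10.8 and 6.79 against 11.001 and 29.7.

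The DNA methyltransferases gave no call in either cell type. Dnmt3a in EpdSC had a signal of 796 and 925 in WT against 387 and 229.8 in libraries labelled Msx2-KO, 2.79-fold lower without overlap (log2 fold change -1.52, adjusted p = 0.142, limma). Dnmt1, which copies methylation after replication, was at 2060 and 1956 in WT against 3651 and 1226 in libraries labelled Msx2-KO, the library with the highest and the library with the lowest value both being labelled Msx2-KO, and its log2 fold change of 0.08 turned to -0.19 with library totals. Dnmt3b was at 72.6 and 51.2 against 52.2 and 41.8. In HFSC the groups overlapped for all 3, with Dnmt1 at 59.3 and 47.2 against 31.2 and 49.5, Dnmt3a at 57.2 and 52.4 against 18.1 and 65.2 and Dnmt3b at 3.74 and 4.53 against 6.54 and 0 CPM.

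The 2 alternative catalytic subunits of Polycomb repressive complex 2 lay lower in EpdSC, while Eed, which holds the complex together, lay higher. Ezh2 had a signal of 824 and 853 in WT against 164 and 313 in libraries labelled Msx2-KO (log2 fold change -1.88, SE 0.57, adjusted p = 0.114, limma), and Ezh1, the form used in resting cells, of 963 and 979 in WT against 28.01 and 429 in libraries labelled Msx2-KO (log2 fold change -3.12, adjusted p = 0.212, limma). Eed was at 433 and 339.7 in WT against 545 and 983 in libraries labelled Msx2-KO (log2 fold change 0.93, adjusted p = 0.293, limma), and Suz12 overlapped at 466 and 495 against 208 and 731. In HFSC Ezh1 and Suz12 lay lower without overlap, at 101 and 79.2 against 62.96 and 20.4 and 32.7 and 35.2 against 17.97 and 17.4 CPM, and Ezh2 and Eed overlapped at 24.96 and 29.7 against 32.9 and 29.5 and 14.9 and 21.2 against 18.8 and 3.61. None of the 4 passed the threshold. The H3K27 demethylases differed from each other in EpdSC: Kdm6a had a signal of 1142 and 799.6 against 1718 and 1253 and lay above WT, and Kdm6b one of 2018 and 1793 against 1155 and 349.8 and lay below, neither past the threshold (adjusted p 0.421 and 0.222, limma).

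The H3K4 methyltransferases spread widely in EpdSC, from Kmt2d at -6.67 to Setd1a at 2.91 on the log2 scale. Kmt2a was at 4446 and 4778 in WT against 605 and 2579 in libraries labelled Msx2-KO (adjusted p = 0.2098, limma) and Kmt2b at 2033 and 2144 in WT against 1416 and 377 in libraries labelled Msx2-KO (adjusted p = 0.256, limma), both lower without overlap. Setd1b overlapped at 1639 and 1612 against 4977 and 1264, as did Kmt2e, a member that binds H3K4me3 and has no known methyltransferase activity of its own, at 2739 and 3427 against 4825 and 1298. Setd7, a lysine methyltransferase of many non-histone proteins as well, lay higher at 2497 and 2361 against 13907 and 3867 (log2 fold change 1.59, adjusted p = 0.232, limma). Per kilobase it was, with Setd1a and Kmt5a, among the 3 most abundant members over all 4 EpdSC libraries, though these ranked 13, 22 and 10 in WT, where Kmt2d, Setd2 and Tet3 led. The least abundant over all 4 were Tet1, Setd4 and Sirt3.

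None of the H4K20 enzymes passed the threshold. Kmt5a, which places the first methyl group and acts around DNA replication, lay higher in EpdSC at 1581 and 1217 in WT against 2539 and 4264 in libraries labelled Msx2-KO (log2 fold change 1.25, SE 0.55, adjusted p = 0.193, limma) and in HFSC at 17.1 and 27.1 against 75.8 and 40.3 CPM (log2 fold change 1.40, SE 0.50, adjusted p = 0.261, edgeR). Kmt5c, which adds further methyl groups, was at 433 and 421 against 26.7 and 97.7 in EpdSC, 6.86-fold lower (adjusted p = 0.0955, limma), and Kmt5b, which acts at the same step, overlapped at 1244 and 1373 against 1433 and 984. In HFSC Kmt5c overlapped at 18.2 and 15.2 against 3.27 and 30.1 CPM, and Kmt5b lay lower at 81.8 and 97.6 against 65.9 and 65.8. The markers of cycling cells, which also lay higher in HFSC labelled Msx2-KO, summed in EpdSC to 5872 and 5578 in WT against 12828 and 6616 in libraries labelled Msx2-KO, and their part in the level of Kmt5a was not tested. The 14 did not move together there: 9 lay above WT without overlap, such as Cdk1 at 53.1 and 56.9 against 1455 and 655, and 2 below, Mki67 at 2517 and 2055 against 7.64 and 294 and Mcm5 at 272 and 373 against 2.55 and 177. Setd2, which places the H3K36 trimethyl mark, was at 3661 and 3777 against 2404 and 1217 and Setd5 at 2988 and 2933 against 1900 and 1213 in EpdSC, both lower without overlap. Setd3, which methylates actin, lay above WT there at 959 and 887 against 1346 and 3020.

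Of 17 demethylases tested in EpdSC, 12 lay below WT without overlap and 1 above, beside 44.5% and 27.8% of all genes. Kdm5c, an X-linked H3K4 demethylase, had a signal of 1771 and 1216 in WT against 261 and 349.8 in libraries labelled Msx2-KO (log2 fold change -2.28, adjusted p = 0.0775, limma), and Kdm2b, which recruits a variant Polycomb complex to CpG islands, of 1555 and 1761 in WT against 505 and 354 in libraries labelled Msx2-KO (log2 fold change -1.97, adjusted p = 0.0891, limma). Among the demethylases of H3K9, Kdm4b was at 811 and 903 against 78.95 and 235, Kdm4c at 744 and 706 against 288 and 97.7, Kdm3a at 1248 and 1541 against 1147 and 645 and Kdm3b at 2087 and 2220 against 1048 and 607, all lower without overlap. Kdm1a, the flavin-dependent H3K4 demethylase LSD1, overlapped at 989.99 and 1001 against 1375 and 723, its mean difference close to 0, while its paralog Kdm1b was lower at 715 and 529 against 239.6 and 235. The Y-linked Kdm5d was listed at 0 in WT replicate 1 and in labelled Msx2-KO replicate 2 and had a signal of 553 and 199 in the other two, and Xist had 14990 and 1738 signal units in the libraries without Kdm5d and near 0 in those with it, at 0.948 and 1.273. The sexes thus appear mixed within each EpdSC group in these RNAs, and Kdm5d gives no reading on genotype. In HFSC every library held both RNAs, Kdm5d at 19.8 and 38.5 against 7.19 and 1.91 CPM and Xist at 497 and 17.2 against 135 and 227.

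The zinc-dependent deacetylases did not share a direction in EpdSC, where 5 of 10 lay below WT without overlap and 3 above. Of all genes 44.5% lay below and 27.8% above, so these counts are near the shares of the table. With the signal of the pseudogene Hdac1-ps added to that of Hdac1, 6 lay below and 2 above. Of the class IIa genes, which shuttle between nucleus and cytoplasm, Hdac4 lay higher at 896 and 969 against 3567 and 1056 and Hdac5 at 2402 and 2067 against 8655 and 2650, the larger part of both differences coming from labelled Msx2-KO replicate 1, and Hdac7 lay lower at 622 and 545 against 177 and 276. Hdac4 shares 3536 exonic bases with the antisense gene Gm26720, whose reads cannot be told apart without strand. Hdac6, a cytoplasmic tubulin deacetylase, was at 233 and 303 in WT against 8.91 and 56.6 in libraries labelled Msx2-KO (adjusted p = 0.111, limma), Hdac8 at 75.8 and 104 in WT against 14.01 and 24.3 in libraries labelled Msx2-KO (adjusted p = 0.0886, limma) and Hdac10, a polyamine deacetylase, at 226 and 205 in WT against 0 and 14.8 in libraries labelled Msx2-KO (adjusted p = 0.0941, limma). These 3 lay lower without overlap in both cell types and passed the threshold in neither.

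The reading of Hdac1, a nuclear class I deacetylase, rested on its processed pseudogene. Hdac1 alone had an EpdSC signal of 370.2 and 389.5 in WT against 909 and 653 in libraries labelled Msx2-KO, 2.06-fold higher without overlap (log2 fold change 1.02, adjusted p = 0.216, limma). Hdac1-ps, with which it shares near-identical sequence, had 757 and 747 in WT against 2.55 and 131 in libraries labelled Msx2-KO. The sum was 1127 and 1136 against 912 and 784, lower and not higher, with a log2 fold change of -0.42 (adjusted p = 0.531, limma), and in HFSC adding the pseudogene changed the log2 fold change from 0.77 to 0.08. The direction of Hdac1 is therefore uncertain in both cell types. Its partner Hdac2 overlapped in EpdSC at 1321 and 1047 against 2733 and 649 and in HFSC at 33.6 and 45.3 against 62.6 and 21.9 CPM, and Hdac3, the enzyme of the NCoR complex, overlapped in EpdSC at 499 and 534 against 134 and 729.9 and in HFSC at 24.6 and 22.3 against 24.4 and 8.07.

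**Figure D3:**
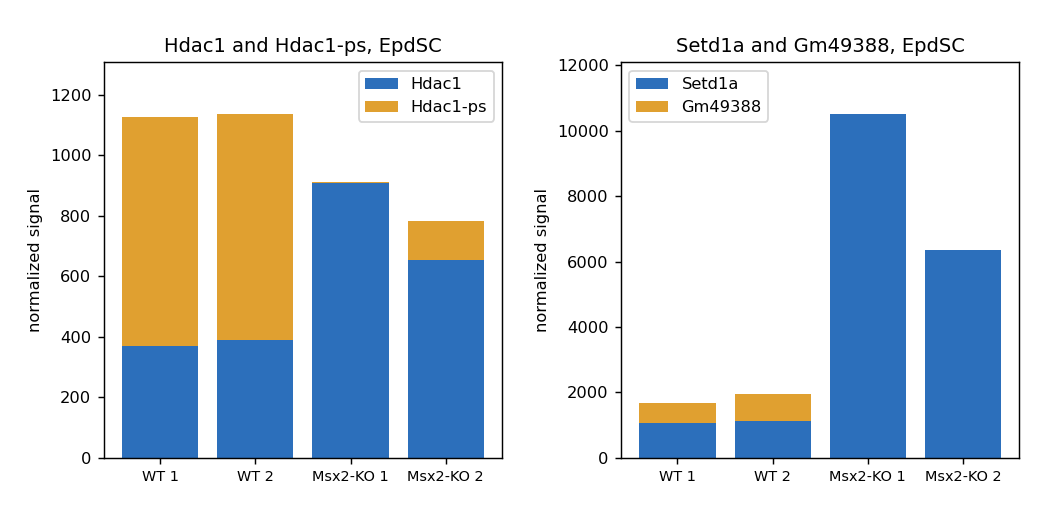
EpdSC signal of Hdac1 with its pseudogene Hdac1-ps (left) and of Setd1a with the overlapping model Gm49388 (right), stacked per library. The Hdac1 sum lies between 784 and 912 in the libraries labelled Msx2-KO and between 1127 and 1136 in WT, while the Setd1a sum stays higher in the libraries labelled Msx2-KO, at 6367 and 10517 against 1682 and 1933.

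Sirtuins gave no call in EpdSC. Sirt6, a nuclear deacetylase of H3K9, was at 109 and 112 in WT against 30.6 and 50.5 in libraries labelled Msx2-KO (log2 fold change -1.47, adjusted p = 0.145, limma) and Sirt1 at 557 and 548 in WT against 448 and 431 in libraries labelled Msx2-KO (log2 fold change -0.33, adjusted p = 0.617, limma), both lower without overlap. Sirt2, mainly cytoplasmic, was also lower at 505 and 474 against 5.09 and 346, its libraries labelled Msx2-KO standing far apart. Sirt7 had a higher mean in the libraries labelled Msx2-KO with overlapping groups, at 519 and 451 against 1098 and 477.

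In HFSC no member was called, as no gene of the table was by edgeR's quasi-likelihood test (0.0% of 14422 in either direction). An unadjusted p under 0.05 was reached by 9 members lower and 1 higher, the latter being Kmt5a, beside 12.8% and 5.3% of all genes tested. The 9 include the Y-linked Kdm5d (log2 fold change -2.65), which lay below WT without overlap. A Y-linked RNA can also vary with the sex of the mice, which is not given, and the part of sex here was not tested. DESeq2 called 323 genes of the table higher and 351 lower but no member, and limma-trend called Setd4 and Sirt5 lower. Both passed the filter on low counts only through their WT counts, so they could only be seen to fall. With at least 10 counts in every library 48 members remained, with a median log2 fold change of -0.25 beside 0.08 over all genes. Of the 62 members 60 passed the filter on low counts, and Kdm4d and Kdm8 did not. Among those 60, 26 lay below WT without overlap and 6 above, beside 33.5% and 17.5% of all genes and 31.8% and 18.3% of protein-coding genes. The 26 include Setd4, Sirt5, Hdac8 and Setd6, which passed the filter only through their WT counts and could only be seen to fall. They also include Hdac10 and Sirt7, at 0 counts in labelled Msx2-KO replicate 1. The shares of all genes come from the same filter. The members' median log2 fold change was -0.40, beside -0.14 over all genes and -0.12 over protein-coding genes. Scaled by library totals instead, 0 lay above WT and 41 below, and the members' median was -1.27. The median of all genes moved as well, to -1.002. The share of all genes apart under that scaling was not computed. Without labelled Msx2-KO replicate 1 the members' median was -0.47, beside -0.32 over all genes. Without replicate 2 it was -0.60, beside -0.72.

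Kdm5a had the lowest p of the members in HFSC. This H3K4 demethylase was at 126 and 133 against 70.6 and 67.9 CPM, 1.88-fold lower (log2 fold change -0.91, SE 0.22, adjusted p = 0.143, edgeR). Kmt2c was at 270.3 and 295 in WT against 179 and 145 in libraries labelled Msx2-KO (log2 fold change -0.81, adjusted p = 0.184, edgeR) and Kmt2e at 281 and 293 in WT against 188 and 182 in libraries labelled Msx2-KO (log2 fold change -0.64, adjusted p = 0.229, edgeR). In all 3 the gap between the groups exceeded the spread within each. Sirt1, Kdm3a and Kdm4c also had an unadjusted p under 0.05, with log2 fold changes of -1.45, -0.89 and -1.29 and adjusted p of 0.221, 0.248 and 0.249 (edgeR). Kdm4c was 2.45-fold lower. Per kilobase the most abundant members over the HFSC libraries were Kmt2e, Kmt2d and Setd2, and the least abundant Kdm4d, Hdac9 and Kdm8.

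Some members with low counts were missing from the HFSC libraries labelled Msx2-KO, which held fewer detected genes. No member was at 0 counts in WT, whereas 9 were in labelled Msx2-KO replicate 1 and 7 in replicate 2. Setd4, a SET domain methyltransferase, had estimated counts of 52 and 15 in WT against 0 and 0 in libraries labelled Msx2-KO, which is at least 12.2-fold lower when each library labelled Msx2-KO is set to a floor of 3 counts (adjusted p = 0.143, edgeR). Sirt5, the mitochondrial desuccinylase, had counts of 29 and 12 in WT against 1 and 0 in libraries labelled Msx2-KO, a ratio of 0.0186 with a 95% counting interval of 0.000459 to 0.109 (adjusted p = 0.145, edgeR). Kdm8 and Kdm4d were at 0 in both libraries labelled Msx2-KO from 12 and 4 and 7 and 1 counts in WT, at least 3.0-fold and 1.31-fold lower. Floors and counting intervals cover counting error only.

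All 7 sirtuins had negative log2 fold changes in HFSC, beside 54.6% of all genes. Below WT without overlap lay 4 of them (Sirt1, Sirt2, Sirt5 and Sirt7), beside 33.5% of all genes. Sirt5 passed the filter on low counts only through its WT counts, so it could only be seen to fall. Sirt1, the best known nuclear sirtuin, was at 31.5 and 31.7 against 12.9 and 10.2 CPM, 2.74-fold lower, with the libraries of each group close together. Sirt2 was at 24.8 and 22.3 against 1.96 and 10.8 and Sirt7, a nucleolar sirtuin, at 15.2 and 16.96 against 0 and 11.7. Sirt3, Sirt4 and Sirt6 each had 1 library labelled Msx2-KO at 0 and the other above both WT libraries, so that the sign of their differences rests on the library at 0. The family median was -1.45 in HFSC and -0.48 in EpdSC, where 6 of 7 values were negative, beside 59.7% of all genes.

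Of the 59 members tested in both cell types, 18 (30.5%) lay below WT without overlap in both, beside 15.3% of the 13151 genes tested in both. Above WT in both lay 2 (3.39%), Kmt5a and Hdac1 with the limit of the pseudogene given above, beside 5.67%, and 4 (6.78%) lay above in HFSC and below in EpdSC, beside 7.98%. The 2 comparisons share no library, and the values are set side by side without a test, since the tables were normalized separately. The 18 were the methyltransferases Kmt2a, Kmt2c, Kmt2d, Setd2, Setd4, Setd5 and Ezh1, the demethylases Kdm1b, Kdm2a, Kdm3a, Kdm4c and Kdm7a, the deacetylases Hdac6, Hdac8 and Hdac10, the sirtuins Sirt1 and Sirt2, and Tet2. Setd4 and Hdac8 passed the HFSC filter on low counts only through their WT counts, so in HFSC they could only be seen to fall. Of the 26 of these members below WT in HFSC, 18 (69.2%) also lay below in EpdSC, where 56.7% of the 60 members tested did. In each cell type alone, members lay below WT more often than all genes. These shares were 43.3% beside 33.5% in HFSC and 56.7% beside 44.5% in EpdSC, and their part in the shared count was not tested. The 4 opposite members, Kdm2b, Kdm4b, Kdm6b and Tet1, lay above WT in HFSC, with log2 fold changes of 0.71, 0.60, 0.39 and 1.20 that turned to -0.15, -0.30 and -0.49 for the first 3 with library totals, and below it in EpdSC. Kdm4a, called lower in EpdSC, overlapped in HFSC at 57.1 and 54.6 against 47.4 and 77.3 CPM.

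**Figure D4:**
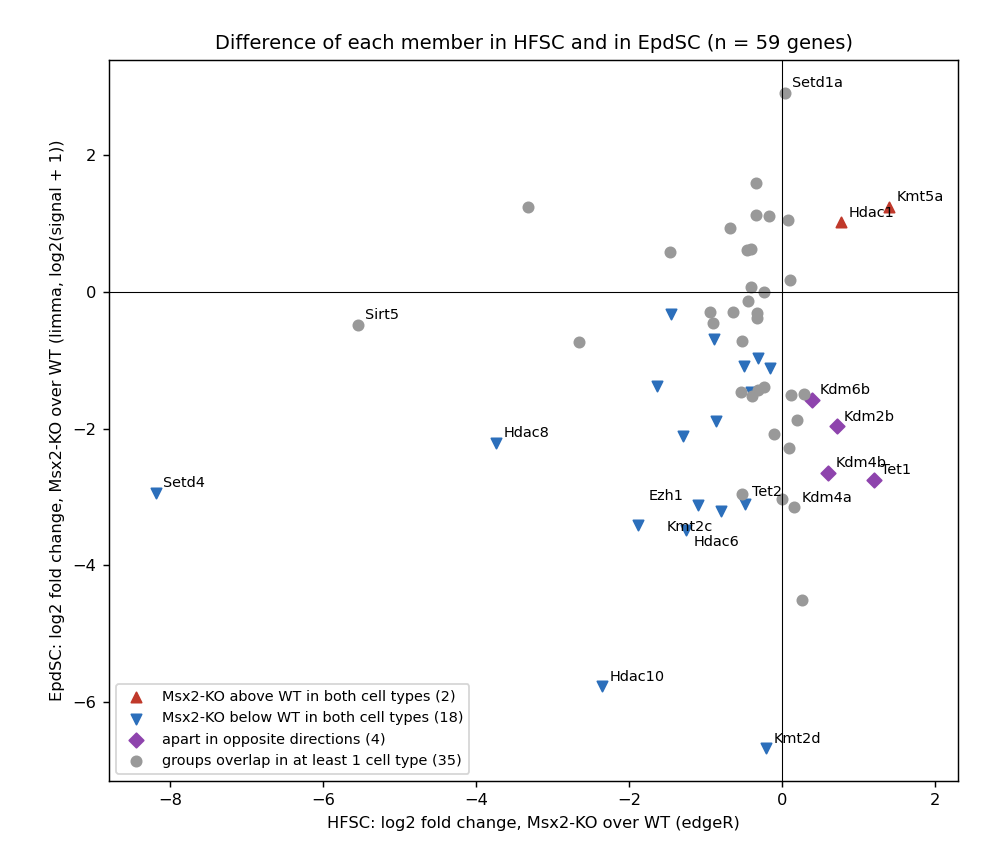
Log2 fold change, libraries labelled Msx2-KO over WT, of the 59 members tested in both cell types, HFSC on the horizontal and EpdSC on the vertical axis, with symbols for members whose groups did not overlap in both. Members lie mostly below and left of the zero lines; the position of Setd4 and Sirt5 on the horizontal axis is a fitted value that depends on the prior count, as both are at or near 0 in labelled Msx2-KO HFSC.

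The partners of these enzymes, from lists of general knowledge, gave 1 call lower in each of 4 lists in EpdSC, where 7.78% of all genes and 3.75% of protein-coding genes were called lower. Among 14 tested genes of DNA methylation Mbd3, a subunit of the NuRD complex, fell, at 1300 and 1268 against 132 and 161 (log2 fold change -3.13, adjusted p = 0.0416, limma). Prdm2 fell among 27 other histone methyltransferases (1500 and 1584 against 31.8 and 45.8, log2 fold change -5.30), Jmjd7 among 12 other JmjC proteins (66.9 and 67.2 against 0 and 2.64) and Arid1b among 19 SWI/SNF subunits (2899 and 3231 against 401 and 316), with adjusted p of 0.0266, 0.0454 and 0.0435 (limma). None of these lists held a gene that rose, and none of the 30 Polycomb partners, 12 COMPASS subunits, 15 histone acetyltransferases and 22 deacetylase partners passed. The lists differed in their balance: medians of log2 fold change in EpdSC were 0.28 for Polycomb partners, 0.39 for COMPASS subunits, 0.46 for deacetylase partners, 0.76 for DNA methylation and 0.11 for SWI/SNF subunits, but -0.35 for acetyltransferases, -1.11 for other methyltransferases and -1.80 for other JmjC proteins.

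Subunits of the complexes that carry the called enzymes did not share one direction. Of the 12 COMPASS subunits, 4 lay below WT without overlap in EpdSC and 5 above, beside 44.5% and 27.8% of all genes. Ncoa6 and Paxip1, which join Kmt2c and Kmt2d in their complexes, had EpdSC signals of 1587 and 1656 against 214 and 303 and 709 and 788 against 220.3 and 165, both lower without overlap. Pagr1a, of the same list, lay above WT at 63.1 and 86.0 against 94.2 and 87.7. Wdr5, common to all H3K4 methyltransferase complexes, was at 383 and 379 against 17256 and 2263, above WT in both libraries labelled Msx2-KO (log2 fold change 4.03, adjusted p = 0.106, limma). In HFSC Paxip1 lay above WT at 23.2 and 27.2 against 64.4 and 60.3 CPM and Wdr5 below it at 15.2 and 14.2 against 5.66 and 2.76, the reverse of EpdSC. No gene of these lists was called in HFSC, where the lowest p among them was that of Chd3, the NuRD helicase, at 32.8 and 33.3 against 149 and 133 (log2 fold change 2.09, adjusted p = 0.143, edgeR).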

How the data were processed

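Sorted HFSC and EpdSC were profiled with the SMARTer Stranded Total RNA kit, and the authors aligned the reads with STAR 2.7.3a in Partek Flow to GRCm38 with GENCODE annotation. Whether counting used strand is not given in the sources used here. The HFSC table holds estimated counts per gene, as deposited and not normalized. The EpdSC table holds a normalized signal per gene, deposited as estimated counts that the authors had multiplied by 1 factor per library, and its read depth is not given. Separate deposited tables hold the authors' p-values, false discovery rates, ratios, fold changes and least-squares means of their own comparisons, which were not used. Samples were grouped by the labels' genotype and sort.

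HFSC counts were rounded and tested with edgeR 4.0.16 (quasi-likelihood, TMM factors, filterByExpr with a minimum count of 10), and levels are given as TMM-normalized CPM. EpdSC signal was tested with limma 3.58.1 on log2(signal + 1), with no filter, so fold changes of low genes are understated. Both fits ran over the whole table in R 4.3.3, with Benjamini-Hochberg adjustment over all genes, and a call needed an adjusted p under 0.05 and a fold change over 2. Groups were said not to overlap when both libraries of 1 genotype lay above both of the other. Levels were compared between genes only per kilobase of exon. The tests were run on simulated data with 200 genes changed 8-fold.

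The members and gene lists were chosen with earlier results of these data known. Named genes were every called member, the 10 of lowest p per cell type with groups apart, the DNA methylation, Polycomb and class I deacetylase members, Kdm5d, the 3 highest and 3 lowest in level, and those apart in both cell types, other members and partners being named after their values were seen. Alternatives were DESeq2 1.42.0 and limma-trend, other scalings, filters, pseudocounts of 0.1 and 10, a replicate block and leaving out each library. Depth in HFSC, 3132974 to 11016659 counts, limits members under about 10 counts.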

Additional observations from a re-analysis of the deposited data

Results flagged for a closer look

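Differences between the cell types stood out for 4 members, because the groups did not overlap in either and the libraries labelled Msx2-KO were the higher ones in HFSC and the lower ones in EpdSC. The difference between the cell types was not tested in any of them. Kdm2b had a log2 fold change of 0.71 in HFSC and -1.97 in EpdSC. Kdm4b had 0.60 in HFSC, from CPM of 27.5 and 25.2 against 31.04 and 48.8, and -2.64 in EpdSC, from signals of 811 and 903 against 78.95 and 235. Kdm6b had 0.39 in HFSC and -1.58 in EpdSC. Tet1 had 1.20 in HFSC and -2.75 in EpdSC, and its labelled Msx2-KO HFSC replicate 1 stood only just above WT replicate 1. With library totals the HFSC values of Kdm2b, Kdm4b and Kdm6b turned to -0.15, -0.30 and -0.49, while that of Tet1 stayed positive at 0.20.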

How the results depend on the processing

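In HFSC no member was called by edgeR under any other scaling or filter tried or by DESeq2, while limma-trend called 2 lower and leaving out a library gave 0 to 3 higher and 0 to 20 lower, the extremes when a library labelled Msx2-KO was left out (3 and 16 without replicate 1, 1 and 20 without replicate 2), where the lone sample is assumed to vary like the others. Leaving out a library labelled Msx2-KO also raised the HFSC calls over all genes, in both directions. The member counts of these fits therefore give no reading on these enzymes in particular. The HFSC median of -0.40 was -0.57 with limma-trend, -1.27 with library totals and -0.25 with at least 10 counts in every library. With a library left out it was -0.38 to -0.60. The median of all genes moved from -0.14 to -1.002 with library totals, relative to which the members' median was lower still. With library totals 0 HFSC members lay above WT and 41 below, and with a library left out 7 to 18 above and 29 to 40 below. DESeq2 and limma-trend called 323 and 158 of all HFSC genes higher and 351 and 1249 lower, where edgeR called 0 (765 higher and 1849 lower at an unadjusted p under 0.05).

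In EpdSC the 4 falls became 1 with a pseudocount of 0.1. With either WT library left out the calls of the whole table were lost, these 4 among them. Leaving out a library labelled Msx2-KO raised the calls among members and over all genes. Rises became 1 with a pseudocount of 10, 1 with a spread trended on level and 0 to 8 with a library left out. The EpdSC median was -1.51 with library totals, -1.78 without mitochondrial and ribosomal RNA and -1.09 to -1.24 with a library left out, the medians of all genes being -0.88 and -1.14 in the first 2. Members above WT numbered 5 without mitochondrial and ribosomal RNA and 9 to 19 with a library left out, and those below 35 to 44.

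Same-numbered libraries share only a number: their deviations correlated at -0.0345 in HFSC and -0.0225 in EpdSC. With the number as a replicate block the HFSC median was -0.65, that of all genes -0.65, and 2 members fell in EpdSC, Kmt2d and Hdac10, the adjusted p of Kmt2c being 0.0744, of Kdm4a 0.0768 and of Tet2 0.0793 (limma).

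Some single genes turned direction. With library totals in HFSC these were Hdac2 (-0.62), Ezh2 (-0.62), Hdac1 (-0.14), Kdm2b (-0.15), Kdm4b (-0.30) and Kdm6b (-0.49), and in EpdSC Dnmt1 (-0.19) and Hdac2 (-0.0893). Hdac2 in HFSC was also -0.0731 with limma-trend and -0.0658 with the block, where Hdac9 was -1.22. Without mitochondrial and ribosomal RNA, EpdSC Dnmt1 was -0.46 and Hdac2 -0.36, and Hdac1 with its pseudogene was -0.42. With a library left out, HFSC values ranged from -0.87 to 0.67 for Hdac2, -1.60 to 0.22 for Dnmt3a, -0.86 to 0.35 for Tet3, -7.40 to 0.67 for Dnmt3b, -2.33 to 0.069 for Eed, -1.56 to 0.0484 for Hdac3 and -6.44 to 2.40 for Hdac9, and EpdSC values from -0.71 to 0.86 for Dnmt1, -0.86 to 1.22 for Hdac2, -1.94 to 0.50 for Hdac3, -1.21 to 0.60 for Suz12 and -5.29 to 3.82 for Kdm5d, the turns in sign coming with a library labelled Msx2-KO left out, except for Hdac2 in HFSC (also without WT replicate 1) and Kdm5d (also without WT replicate 2). The cause was not tested where an alternative does not itself show it. Of the values of named genes, 439 in HFSC and 438 in EpdSC kept direction and side of the threshold, 30 and 43 came to pass it, and 15 in EpdSC no longer passed. The sums with Hdac1-ps and Gm49388 were chosen after seeing the data. The planned edgeR fit on reads recovered from EpdSC signal was not run. The reason was that 72.1% to 81.0% of low values came out whole within 0.01 counts. Low values of the WT HFSC libraries were whole about as often, and HFSC counts were rounded and tested. This share therefore does not show that EpdSC reads could not be recovered.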
